A study of Homo sapiens with 12 samples.

Results

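Replication-dependent histone genes were followed through Input and ribosome-protected fragment (RPF) libraries of HepG2 cells. They were taken as the protein-coding genes whose GENCODE symbol is H1-1 to H1-5 or starts with H2AC, H2BC, H3C or H4C and a number. The rule found 65 genes of the 58721 in the files, 19831 of which are protein-coding. These were 5 H1, 15 H2A, 19 H2B, 11 H3 and 15 H4 genes, of which 52 lie on chromosome 6, 11 on chromosome 1, and the other two on chromosomes 12 (H4C16) and 21 (H2BC12L).

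Histones H2A, H2B, H3 and H4 form the core particle that DNA wraps around, and H1 linker histones bind where DNA enters and leaves it. Cells copying their DNA need these proteins in bulk, and the replication-dependent genes, which lie in clusters and mostly have no introns, supply them in S phase. Their mRNAs are the known exception among animal mRNAs in ending with a conserved stem-loop, bound by SLBP, instead of a poly(A) tail. Variant histones such as H3.3 and H2A.Z come from separate genes with ordinary polyadenylated mRNAs that are made throughout the cell cycle.

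HepG2, a human liver tumour cell line, was transfected with siControl or with siIGF2BP3, an siRNA against the RNA-binding protein IGF2BP3, and active mRNA translation sequencing (ART-seq) was run after 2 days. The 4 groups were siControl Input, siIGF2BP3 Input, siControl RPF and siIGF2BP3 RPF, each with 3 libraries. All cells received 100 µg/mL cycloheximide, which halts ribosomes, for 4 min before lysis, and footprints of 28 to 30 nt were size-selected. How Input libraries were made, and whether their RNA was selected by poly(A) tail, is not given in the sources used here, so RPF over Input of these genes is given below as a ratio of libraries and not as a translation rate. Nothing in the labels says that replicates came from separate cultures, so p-values measure the spread between these libraries, which may be technical.

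Depth differed between the assays. Library totals ran from 11219750 to 14797573 counts in Input and from 13036423 to 31510601 in RPF. One library stood apart from its group, siIGF2BP3 RPF replicate 1, which had the smallest RPF total and, at 82.7%, the smallest share of counts on protein-coding genes (84.7% and 84.9% in replicates 2 and 3). Over all genes siControl RPF replicates 2 and 3 differed by less than sampling noise (mean chi-square per gene 0.941, noise alone giving about 1). They were counted as 1 sample in means and SDs, so n = 2 there. Over histone genes they differed by more than sampling noise (3.64), so the siControl RPF SDs below leave out that difference. IGF2BP3 itself had 127 to 133 counts per 1000000 (CPM) with siControl and 97.9 to 105 CPM after knockdown in Input, a log2 fold of -0.39 ± 0.05 (SE, edgeR adjusted p = 1.06e-05). In RPF libraries it fell from between 74.6 and 78.1 CPM to between 21.9 and 28.0 CPM (log2 fold -1.59 ± 0.08, edgeR adjusted p = 0.000301). The liver secretory markers ALB and APOB had mean levels of 9268 and 22272 CPM in siControl Input. Markers of other cell types ran from PTPRC (immune) at 0 and COL1A2 (stromal) at 0.0067 CPM to CD68 (immune) at 23.0 CPM. Between them lay KRT7 (biliary) at 0.0531, COL1A1 (stromal) at 0.215, and VWF and PECAM1 (endothelial) at 0.590 and 1.48 CPM.

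The stem-loop is printed first because it is the feature that sets these mRNAs apart. The first 100 bases after each stop codon, read from hg38 with GENCODE 44 models on the transcript strand, were searched for the histone 3′ stem-loop, a run of 16 bases. It was found in 64 of 65 histone genes (98.5%), the exception being H2BC12L, and in 4 of 19654 other protein-coding genes (0.0204%), namely H1-6, H2AX, H3-4 and H3-7. It began 23 to 63 bases after the stop codon, with a median of 36. A match describes these letters and does not show that the RNA was processed there. Shown here are the gene of each class with the highest mean CPM per kb of exon over the 12 libraries, then H4C3 and H2BC4, which carry other common forms, each 5′ to 3′ with the stem-loop in capitals and 5 flanking bases on each side.
H1-2: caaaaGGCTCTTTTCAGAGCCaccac
H2AC14: acaaaGGCTCTTTTCAGAGCCacttc
H2BC17: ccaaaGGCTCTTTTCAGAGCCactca
H3C10: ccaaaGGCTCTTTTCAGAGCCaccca
H4C12: caaaaGGCCCTTTTTAGGGCCcccac
H4C3: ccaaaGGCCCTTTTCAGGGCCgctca
H2BC4: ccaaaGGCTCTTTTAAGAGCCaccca

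These 7 stretches lie on chromosome 6 of hg38, at chr6:26055739-26055764 (minus strand) for H1-2, chr6:27814303-27814328 (minus) for H2AC14, chr6:27893865-27893890 (plus) for H2BC17, chr6:27810511-27810536 (plus) for H3C10, chr6:27831173-27831198 (minus) for H4C12, chr6:26104312-26104337 (plus) for H4C3 and chr6:26123467-26123492 (minus) for H2BC4. There were 10 forms in all. The one shown for H1-2, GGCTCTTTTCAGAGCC, was shared by 36 genes of the H1, H2A, H2B and H3 classes and by no H4 gene. Among H4 genes 10 had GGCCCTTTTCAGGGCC, 4 had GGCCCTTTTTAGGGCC, and H4C13 had a form of its own. The form of H2BC4, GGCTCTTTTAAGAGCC, was found in 8 genes, 5 of them H2B, and 6 forms were each found in 1 gene.

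Histone genes were nearly empty in Input and abundant in RPF in both conditions. Summed over the 65 genes, the siControl Input libraries held 68.6, 76.6 and 74.1 CPM and the siControl RPF libraries 19080, 18474 and 18957 CPM. In siIGF2BP3 cells the sums were 83.5, 81.2 and 75.03 CPM in Input and 21851, 17861 and 17637 CPM in RPF. Their counts were therefore 0.00686% to 0.00835% of an Input library and 1.76% to 2.19% of an RPF library. The ratio of the mean sums, RPF over Input, was 258 in siControl and 239 in siIGF2BP3.

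The contrast held gene by gene. In siControl the 3 RPF libraries lay above the 3 Input libraries for 65 of 65 histone genes, as they did for 33.5% of protein-coding genes with a count, and in siIGF2BP3 cells for 65 of 65, against 30.7%. The median histone gene had 0.125 CPM in siControl Input, where the median protein-coding gene with a count had 14.2 CPM, and 200 CPM in siControl RPF, where the median protein-coding gene with a count had 12.002 CPM. In siControl Input 13 of 65 reached 1 CPM and 1, H1-2, reached 10 CPM. In siControl RPF 63 reached 1 CPM, 57 reached 10 CPM and 43 reached 100 CPM. Of the 65, 13 had no count in any of the 6 Input libraries, and for the 11 of them above 1 CPM in siControl RPF a lower bound can be given. With Input set at the floor of 3 counts over the 3 libraries, RPF was at least 19.6-fold to at least 2707-fold higher. Among the 37 genes with more than 3 Input counts over siControl libraries, RPF over Input ran from 26.7 to 5305, with a median of 550. Intervals on these ratios cover counting error of Input only.

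**Figure D1:**
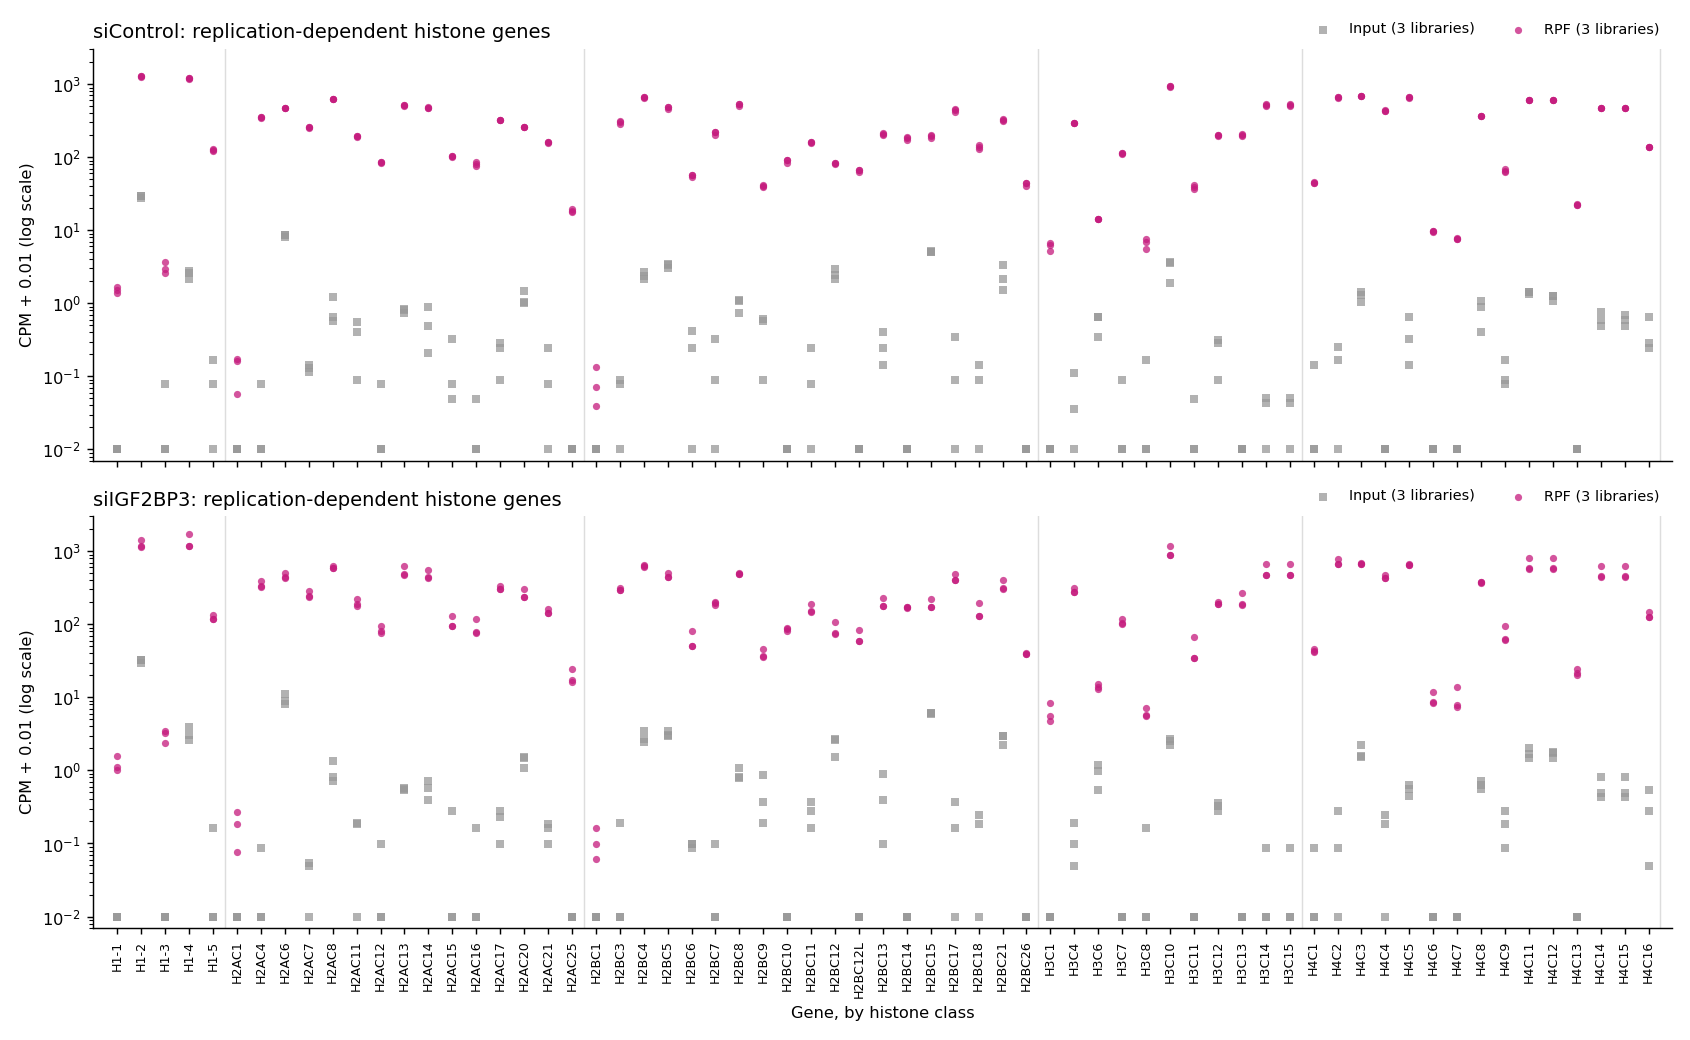
Level of each of the 65 histone genes in the 3 Input libraries (grey squares) and 3 RPF libraries (purple circles) of siControl (top) and siIGF2BP3 (bottom) cells, as CPM + 0.01 on a log axis, with genes ordered by class. Points at 0.01 have no count, and RPF points lie above Input points for each gene, with H2AC1 and H2BC1 near 0 in both.

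The linker histones H1-2 and H1-4 together held 94.9% of H1 footprints in siControl cells. H1-2 (ENSG00000187837, chr6:26055787-26056428, minus strand, 1 exon) had 28.0, 29.8 and 29.4 CPM in siControl Input and 32.6, 32.4 and 29.8 CPM in siIGF2BP3 Input, the most of any histone gene and 39.7% of their summed siControl Input. Its RPF levels were 1290, 1239 and 1278 CPM in siControl and 1410, 1157 and 1165 CPM in siIGF2BP3 cells. RPF exceeded Input 43.8-fold in siControl (95% Poisson interval of the Input count 41.4 to 46.4), among the smaller ratios of the family. H1-4 had nearly the same RPF level, 1231, 1185 and 1224 CPM in siControl, from far less Input, 2.80, 2.16 and 2.62 CPM, so its ratio was 486 (400 to 597). Per kb of coding sequence the siControl RPF means were 1994 CPM for H1-2 and 1853 CPM for H1-4. H1-5 had 128 ± 4.36 CPM (SD, n = 2) in siControl RPF on 3 Input counts in all. H1-1, known from few tissues, and H1-3 had 1.48 and 2.97 CPM.

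H2A proteins pair with H2B proteins in the nucleosome, and many H2A genes share a promoter region with an H2B gene. H2AC14 (ENSG00000276368, chr6:27814354-27814740, minus strand) had 0.879, 0.473 and 0.198 CPM in siControl Input and 483, 468 and 478 CPM in siControl RPF. The siIGF2BP3 libraries had 0.713, 0.388 and 0.572 CPM in Input and 554, 441 and 426 CPM in RPF. H2AC8 had 0.804 ± 0.36 CPM in siControl Input (SD, n = 3) and 631 ± 6.14 CPM in siControl RPF (n = 2), and H2AC13 0.788 ± 0.0604 and 513 ± 3.73 CPM. Their RPF over Input ratios were 931 (618 to 1562) for H2AC14, 764 (544 to 1110) for H2AC8 and 649 (453 to 935) for H2AC13, and these intervals overlap. Over the 15 H2A genes siControl RPF ranged from 0.128 CPM for H2AC1 to 631 CPM for H2AC8, with a median of 257 CPM.

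Among H2B genes, H2BC17 (ENSG00000274641, chr6:27893463-27893843, plus strand) had 0, 0.338 and 0.0794 CPM in siControl Input and 457, 420 and 447 CPM in siControl RPF. In siIGF2BP3 cells it had 0.357, 0.155 and 0 CPM in Input and 493, 406 and 401 CPM in RPF. H2BC4, whose gene model runs to other exons far beyond the stem-loop, had more Input, 2.16, 2.37 and 2.70 CPM, and 676, 642 and 662 CPM in siControl RPF. H2BC3 had 302 ± 10.5 CPM in siControl RPF (n = 2) on 2 Input counts. Per kb of coding sequence, siControl RPF means were 1757 CPM for H2BC4, 1177 CPM for H2BC17 and 799 CPM for H2BC3. H2BC1, like its neighbour H2AC1 a gene known from testis, was almost empty at 0.0618 CPM, and neither reached the test for RPF. H2BC12L, the one gene without a stem-loop match, had no Input count and 66.6, 62.5 and 66.4 CPM in siControl RPF. Whether these counts come from reads shared with other H2B genes was not tested.

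H3 supplies the tail that carries many of the best known histone marks. H3C10 (ENSG00000278828, chr6:27810064-27811300, plus strand) had 1.92, 3.65 and 3.57 CPM in siControl Input and 942, 922 and 951 CPM in siControl RPF. In siIGF2BP3 cells the values were 2.50, 2.25 and 2.64 CPM in Input and 1176, 888 and 878 CPM in RPF. Its RPF over Input was 305 (255 to 367) in siControl and 400 (324 to 499) in siIGF2BP3 cells, and these intervals overlap. H3C4 had 294 ± 2.29 CPM in siControl RPF (n = 2), but all 411 bases of its exon lie within the same-strand feature ENSG00000282988, listed with 555 CPM, so its share is uncertain. H3C13, on chromosome 1, had no count in any Input library and 208, 198 and 201 CPM in siControl RPF, at least 2707-fold higher than the floor.

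H4 genes encode almost the same protein from many copies. H4C12 (ENSG00000273542, chr6:27831216-27831527, minus strand) had 1.24, 1.08 and 1.27 CPM in siControl Input and 605, 605 and 601 CPM in siControl RPF. Its siIGF2BP3 values were 1.47, 1.71 and 1.76 CPM in Input and 798, 582 and 566 CPM in RPF. H4C11 had RPF values within 0.0647% of these in each RPF library, so the pair cannot be separated. H4C3 had 1.28, 1.42 and 1.03 CPM in siControl Input, 1.52, 1.55 and 2.20 CPM in siIGF2BP3 Input, 693, 693 and 691 CPM in siControl RPF and 675, 682 and 667 CPM in siIGF2BP3 RPF. Of the 15 genes with the highest levels per kb, 3 in each class, 14 had their highest siIGF2BP3 RPF value in replicate 1, and H4C3 was the exception. H4C14 and H4C15, and H3C14 and H3C15, were likewise equal within 0.0229% and 0.0195%.

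**Figure D2:**
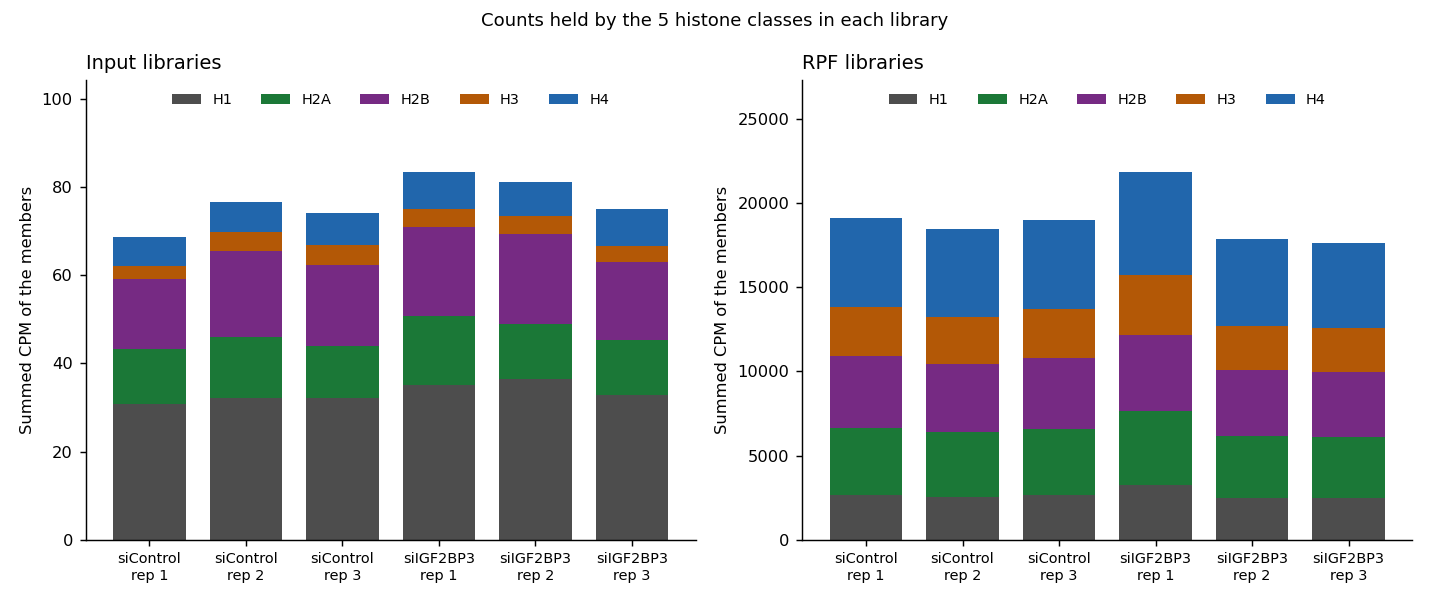
Summed CPM of the H1, H2A, H2B, H3 and H4 genes in each Input library (left) and RPF library (right), stacked by class with the vertical axes starting at 0 and differing in scale. H1, mostly H1-2, makes up the largest block of Input, H4 the largest of RPF, and siIGF2BP3 RPF replicate 1 is the tallest RPF bar at 21851 CPM.

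The classes took different shares in the assays. In siControl Input H1 genes had 31.7 ± 0.782 CPM (SD, n = 3), H2A 12.7 ± 1.01, H2B 17.9 ± 1.80, H3 3.99 ± 0.931 and H4 6.82 ± 0.364 CPM. In siControl RPF (n = 2) the sums were 2625 ± 44.7, 3925 ± 40.3, 4226 ± 124, 2860 ± 37.8 and 5262 ± 10.8 CPM. RPF over Input was therefore 82.8 for H1 (95% interval 78.4 to 87.6), 308 for H2A (282 to 336), 234 for H2B (218 to 252), 712 for H3 (611 to 838) and 772 for H4 (686 to 873). The H3 and H4 intervals overlap and those of the other classes do not. These intervals cover counting error of Input only. The H1 ratio rests mostly on H1-2, which had 29.0 of the 31.7 CPM of H1 Input and a ratio of 43.8. H1-4 had 2.53 CPM of Input and a ratio of 486. In siIGF2BP3 cells the ratios in the same order of classes were 78.1, 289, 209, 758 and 671, and the H3 and H4 intervals again overlapped (640 to 899 and 599 to 757).

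A nucleosome holds equal amounts of the core histones, so footprints per kb of coding sequence were also compared. Of the core total, H4 took 37.3% to 38.7% over the 6 RPF libraries, H2B 23.1% to 24.97%, H2A 21.7% to 22.4% and H3 15.2% to 16.7%. These shares leave out 4 further histone genes, H2AC18, H2AC19, H3C2 and H3C3, whose GENCODE identifiers are not among those of the files. Features with other identifiers lie at their places on the same strands and had mean siControl RPF levels of 453, 453, 1516 and 971 CPM and Input levels of 4.05, 4.05, 0.223 and 0.597 CPM. With these 4 added, H4 took 31.5% to 32.7%, H3 24.1% to 25.6%, H2A 22.5% to 23.3% and H2B 19.4% to 21.1%, so the place of H3 in the order depends on them. Both sets of shares also leave out the same-strand feature ENSG00000282988, with 555 CPM in siControl RPF. It covers all 411 bases of H3C4 and 385 of the 393 bases of H2AC7. Its part in the H3 and H2A shares was not tested.

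Input levels were also set beside the gene models. In 34 genes the annotated exons end before the last base of the stem-loop, and these had a median of 0.0345 CPM in siControl Input and 144 CPM in siControl RPF. In 25 genes the exons run more than 100 bases past it, and these had medians of 0.384 and 216 CPM. The remaining 5 with a stem-loop had 0.788 and 604 CPM. Median exon lengths of the 3 sets, in the same order, were 393, 1876 and 488 bases, and these CPM are not scaled to length. Of the 13 genes with at least 1 CPM of Input, 6 (H1-2, H1-4, H2AC20, H2BC12, H4C3 and H4C12) had the short model, H4C11 the middle one, and 6 (H2AC6, H2BC4, H2BC5, H2BC15, H2BC21 and H3C10) the long one. Where on the exons the reads lie was not tested, since the files hold 1 value per gene. Overlaps add to this, since H2BC15 shares 393 bases with H2AC15 on the opposite strand, H3C12 shares 346 bases with H2AC17 on the same strand, and the strand setting of the counting is not given.

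RPF over Input was then tested against all genes with counts in both assays. Of the 65 histone genes 14 passed the filter in Input, those with the higher Input levels, and 14 of these 14 were called higher in RPF in siControl, where 38.2% of the 13395 genes tested were. In siIGF2BP3 cells the count was again 14 of 14, against 37.9%. Log2 ratios in siControl ran from 4.98 for H2BC12 to 9.07 ± 0.09 (SE, edgeR adjusted p = 6.74e-24) for H4C3, and the lowest lay at the 99.4 percentile of all genes tested. H1-2 stood at 5.42 ± 0.09 (adjusted p = 7e-21), H2BC4 at 8.06 ± 0.09 (2.55e-23) and H3C10 at 8.22 ± 0.18 (5.66e-14). The median of all genes tested was -0.19, since each assay is scaled to its own total and the ratio is relative.

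**Figure D3:**
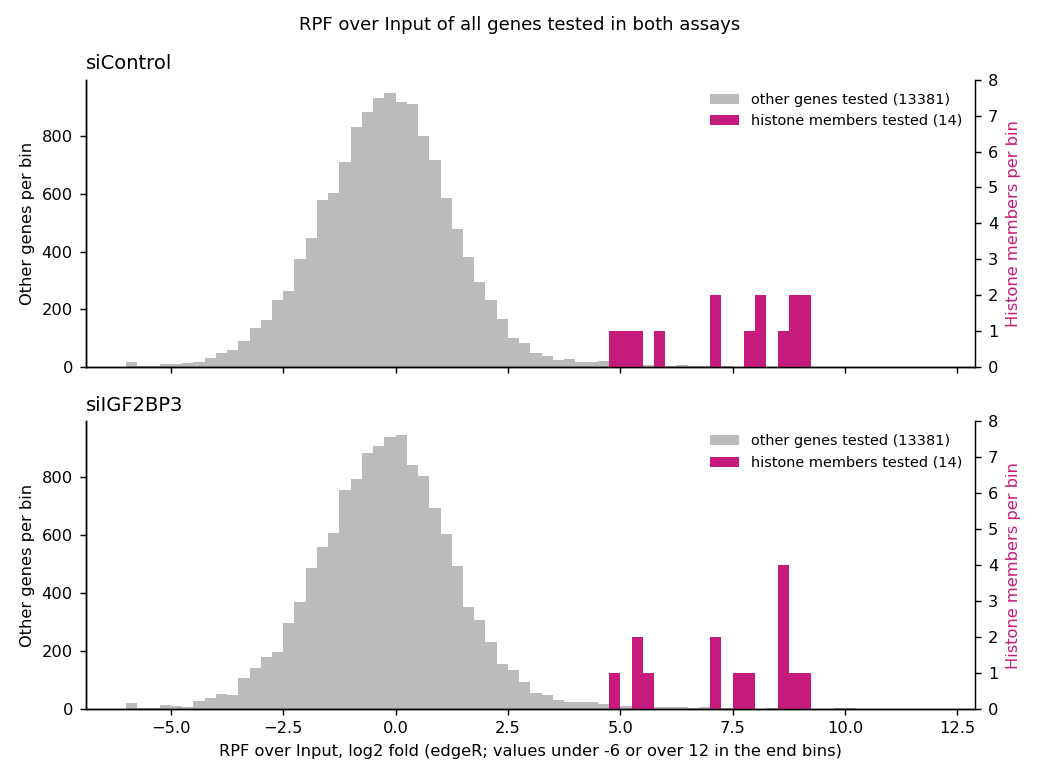
Distribution of RPF over Input (log2 fold, edgeR) in siControl (top) and siIGF2BP3 (bottom) cells for the 13381 other genes tested (grey, left axis) and the 14 histone genes tested (purple, right axis). Other genes spread widely to both sides of 0, and the histone genes lie at the right end, from 4.98 upward in siControl. Of all 13395 genes tested in siControl, 5118 were called higher in RPF and 6460 lower.

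Replication-independent histone genes had far lower ratios. RPF over Input of the 11 replication-independent histone genes ranged from 0.383 to 3.41 in siControl and from 0.374 to 3.70 in siIGF2BP3 cells. H3-3A and H3-3B, which encode H3.3, had 1.01 and 0.715, and H2AZ1, which encodes H2A.Z, had 2.59. H2AX, a histone of DNA repair whose gene also has the stem-loop letters and can make both kinds of mRNA, had the top value of the list with 62.8 CPM in Input and 214 CPM in RPF. SLBP, the stem-loop binding protein, had 94.8 ± 6.01 CPM in siControl Input (SD, n = 3) and 107 ± 1.20 CPM in siControl RPF (n = 2), a ratio of 1.12. Of 6 noncoding RNAs known to lack a poly(A) tail, RN7SK had a ratio of 7.77, RN7SL1 86.3, RN7SL2 58.7, TERC 249 (95% interval 107 to 766) and RPPH1 1449 (864 to 2920) in siControl. RMRP had 68.7 CPM in siControl RPF on an Input of 0.5 counts over the 3 libraries, too few for a ratio. These RNAs are not translated, so their counts in RPF libraries need not be footprints.

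Knockdown left histone Input without a call. The RNA comparison tested the same 14 histone genes among 14759 genes, and called 0 of them, where 5.96% of all genes tested were called, with 0 below an unadjusted p of 0.05. Of the 14, 10 had a log2 fold change above 0, and the median was 0.15, against 0.0023 over all genes tested. DESeq2 gave an adjusted p for 1 of the 14, which was not called, and none for the other 13, so it adds little here. H4C3 had the highest log2 fold change, 0.43 ± 0.29 (SE, adjusted p = 0.43), and H3C10 the lowest, -0.37 ± 0.24 (adjusted p = 0.408). For H1-2, the best counted, it was 0.07 ± 0.08 (adjusted p = 0.642). The conditions overlapped for H1-2 (28.0 to 29.8 against 29.8 to 32.6 CPM), and for H4C3 the siIGF2BP3 libraries (1.52 to 2.20 CPM) lay above the siControl libraries (1.03 to 1.42 CPM). Summed by class, Input was higher after knockdown without overlap for H1 (30.8 to 32.1 against 32.8 to 36.4 CPM) and H4 (6.51 to 7.22 against 7.71 to 8.47 CPM). For H2A, H2B and H3 the sums overlapped.

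Footprints gave no call either. The RPF comparison tested 63 of 65 histone genes among 20192 and called 0, where 1.66% of all genes tested were called, with 0 below an unadjusted p of 0.05 and 0 by DESeq2, which gave an adjusted p for 62 of them. Of the 63, 34 had a log2 fold change above 0, and the median was 0.01, as it was over all genes tested. Values ran from -0.25 to 0.31, with class medians between -0.02 for H2B and 0.05 for H4. The gene of each class with the highest mean CPM per kb gave -0.01 ± 0.09 for H1-2 (adjusted p = 0.989), 0.01 ± 0.11 for H2AC14 (0.988), -0.01 ± 0.10 for H2BC17 (0.994), 0.08 ± 0.12 for H3C10 (0.809) and 0.12 ± 0.14 for H4C12 (0.735).

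The absence of calls in RPF depended on siIGF2BP3 RPF replicate 1. In that library 58 of 63 histone genes were higher than in both other siIGF2BP3 RPF libraries, as were 39.2% of the 11716 other protein-coding genes at 1 CPM or more. The median ratio of replicate 1 to the mean of replicates 2 and 3 was 1.22 for histone genes, with a range of 0.868 to 1.90, and 0.965 for the others. In siControl RPF the same ratio had a median of 1.02, and replicate 1 was the highest of its group for 41 of 63 histone genes (65.1%), against 43.9% of other protein-coding genes. Without replicate 1, 38 of 63 histone genes were called, with 0 rises and 38 falls, where 8.57% of the 20615 genes then tested were called lower. That test kept siIGF2BP3 RPF replicates 2 and 3, which differed over all genes by little more than sampling noise. Their mean chi-square per gene was 1.15, and 2.07 over histone genes, against 0.941 and 3.64 for the siControl pair. No run counted the siIGF2BP3 pair as 1 sample, so the spread behind these calls may be technical. The falls were small, with log2 fold changes of -0.08 to -0.24 and a median of -0.10 over the 63 genes. They were spread over the classes, at 2 of 5 H1, 11 of 14 H2A, 12 of 18 H2B, 8 of 11 H3 and 5 of 15 H4 genes. Among them H1-2 had -0.13 (adjusted p = 0.00268), H2AC14 -0.14 (0.00292) and H2BC17 -0.13 (0.0129), each by edgeR. When the counts of the near-equal siControl pair, replicates 2 and 3, were added together, 26 of the 63 were called, with 26 falls against 7.40% of all genes tested, and with the replicate number as a block 34 were, with 34 falls against 8.69%. H3C10 and H4C12 were called with the block (-0.10, adjusted p = 0.00731, and -0.09, 0.0153) and not with the sum (-0.09, 0.0602, and -0.07, 0.134). In the test with siIGF2BP3 replicate 1 kept, the same sum took the calls over all genes from 336 to 14.

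Other values moved with that library. Summed replication-independent histone genes had 1698 CPM in siIGF2BP3 RPF replicate 1 and 1432 and 1422 CPM in replicates 2 and 3, the 6 RNAs without a poly(A) tail 1198 against 1145 and 1025 CPM, and the 18 S phase genes 3972 against 4115 and 4166 CPM. Within a list, single genes went either way. H2AX had 332 against 205 and 198 CPM, H2AZ1 279 against 282 and 282, and H3-3A 64.9 against 73.0 and 73.0. RN7SL2 had 400 against 291 and 260 CPM, and RPPH1 447 against 576 and 517 CPM. Its depth and its share on protein-coding genes are given above. The part of these in the result was not tested. The sums over the 65 histone genes were 18474 to 19080 CPM in siControl RPF and 17637 to 17861 CPM in siIGF2BP3 replicates 2 and 3, which do not overlap, and 21851 CPM in replicate 1.

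**Figure D4:**
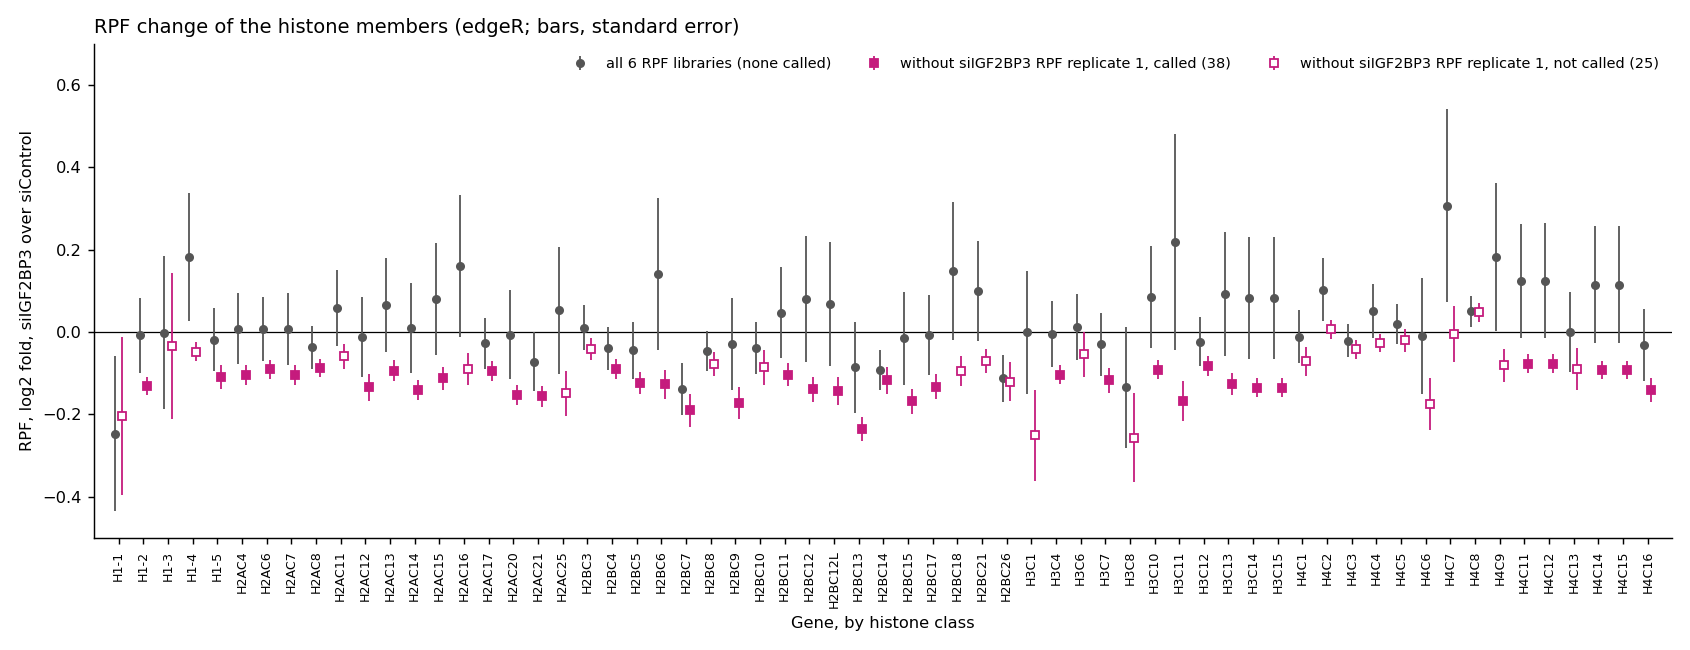
RPF log2 fold change, siIGF2BP3 over siControl, of the 63 histone genes tested, with standard errors, from all 6 RPF libraries (grey circles) and without siIGF2BP3 RPF replicate 1 (purple squares, filled where called at an adjusted p under 0.05). The grey points scatter about 0 with long bars, and 61 of the 63 squares lie below 0, 38 of them filled.

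Translational efficiency, tested as the change of RPF over Input between the conditions, called 0 of the 14 histone genes among 13395, where 2.21% of all genes tested were called, with 0 below an unadjusted p of 0.05 and 0 by DESeq2. H3C10 had the highest value, 0.46 ± 0.38 (log2, SE, edgeR adjusted p = 0.625), and H4C3 the lowest, -0.45 ± 0.21 (0.409). H1-2 had -0.08 ± 0.11 (0.776). With Input counts of 50 for H4C3 and 123 for H3C10 over the 3 siControl libraries, these values rest on few reads, and the other 51 histone genes did not pass the filter.

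Genes that act on histone mRNAs or with them in S phase were read beside these. Of 14 factors for their transcription, processing, translation and decay, 0 were called in RNA, RPF or translational efficiency by edgeR (5, 2 and 2 below an unadjusted p of 0.05). DESeq2 also called 0, but gave no adjusted p for 5 of them in RNA and 3 in translational efficiency. Without siIGF2BP3 RPF replicate 1, 1 was called higher and 1 lower in RPF. In that setting 1643 of all 20615 genes tested were called higher and 1767 (8.57%) lower, which is also the background for the lists below. SLBP had log2 fold changes of -0.18 ± 0.06 in Input (adjusted p = 0.0579) and -0.09 ± 0.04 in RPF (0.372). The 11 replication-independent histone genes also gave 0 calls in the 3 comparisons by either tool (2, 3 and 0 below 0.05), with H2AZ1 at -0.12 ± 0.05 (0.161), H3-3A at -0.11 ± 0.06 (0.344) and H3-3B at -0.07 ± 0.04 (0.365) in Input. Without siIGF2BP3 RPF replicate 1, 6 of these 11 were called lower in RPF, H3-3B among them (-0.19 ± 0.03, edgeR adjusted p = 0.000669), and 0 higher, with the same count of 6 when siControl replicates 2 and 3 were summed and with the block. Of 18 S phase genes 3 fell in Input, the ribonucleotide reductase subunits RRM2 (-0.25 ± 0.05, adjusted p = 0.00108) and RRM1 (-0.26 ± 0.06, 0.00435) and the replicative helicase subunit MCM3 (-0.20 ± 0.05, 0.00672), where 1.90% of all genes tested were called lower, and 0 rose. In RPF 0 of the 18 were called by edgeR (3 below 0.05) and 1 by DESeq2. Without siIGF2BP3 RPF replicate 1, 5 of the 18 were called lower, RRM2 (-0.23 ± 0.03, edgeR adjusted p = 0.000616) and RRM1 (-0.14 ± 0.03, 0.00409) among them, and 0 higher, with 3 lower when siControl replicates 2 and 3 were summed and 5 with the block.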

How the data were processed

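Per the study's methods, the authors removed adapters and low-quality bases with Cutadapt, mapped reads to hg38 by STAR and obtained gene values from featureCounts; versions, strand setting and treatment of shared reads are not given in the sources used here. The authors deposited an estimated count per gene and library without depth scaling, and many are fractions: 95.4% to 98.5% of the histone genes with a count in an RPF library and 15.0% to 24.3% in an Input library. Near-identical copies are therefore uncertain. Counts were rounded before tests, which changed library totals by at most 0.0445%.

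Gene names were joined on unversioned identifiers to GENCODE release 44 (58207 of 58721 matched, 99.1%; the rest held 0.566% of counts). Groups and replicate numbers came from the sample titles. Tests used edgeR 4.0.16 in R 4.3.3 on all genes (filterByExpr, TMM within assay, robust quasi-likelihood, Benjamini-Hochberg threshold 0.05); DESeq2 1.42.0, which the study's methods name for translational efficiency, served as an alternative. CPM are counts per 1000000 of the library total. RPF over Input divides the mean RPF CPM by pooled Input CPM, with exact Poisson 95% intervals for the Input count and a floor of 3 counts per group; reads carried no molecular identifiers. Coding length is that of the GENCODE model, and for the 4 features of other identifiers it is the median over the histone genes of the class. Scripts were tested on simulated counts.

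Named were, in each class, the 3 genes with the highest mean CPM per kb of exon, and SLBP, H3-3A, H3-3B and H2AZ1. Genes of the lists were also named where called in the main tests, which called no histone gene in RNA, RPF or translational efficiency. Of the 38 histone genes called without siIGF2BP3 RPF replicate 1, only some are named, and not by smallest adjusted p. Others named for an extreme value, an overlap or an Input level were chosen after their values were seen. The genes and lists were chosen with earlier results of these data known. Same-numbered siControl and siIGF2BP3 RPF libraries deviated together (Pearson r over genes of 0.34, 0.294 and 0.111). So did siControl replicate 2 with siIGF2BP3 replicate 3 (0.196) and siControl replicate 3 with siIGF2BP3 replicate 2 (0.160). These values set replicate 1 apart and do not settle how replicates 2 and 3 pair. Same-numbered Input libraries did not deviate together (0.0378, -0.0041 and -0.0376). Replicate numbers entered only the runs with the replicate block, and the main tests used no pairs.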

Additional observations from a re-analysis of the deposited data

How the results depend on the processing

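Calls of histone genes in RNA, RPF and translational efficiency stayed at 0 under other scaling (upper-quartile or RLE factors), either other filter (none, or a minimum mean of 5 CPM), protein-coding genes alone, the length offset, replicates 2 and 3 of siControl RPF summed, and TMM over 12 libraries, where each was run, and with the 4 features of other identifiers added, an alternative chosen after seeing the data. With the replicate number as a block they were 0 in RNA, RPF and translational efficiency and 14 in RPF over Input in each condition. With all libraries kept, the block therefore changed no call. DESeq2 also called 0 in the 3 comparisons, but in RNA 13 of 14 genes had no adjusted p, so that count is void. Leaving out 1 library in turn gave 0 to 38 calls in RPF, the 38 without siIGF2BP3 RPF replicate 1, and 0 in RNA and translational efficiency. With that library left out, and chosen after seeing the data, summing siControl RPF replicates 2 and 3 gave 26 calls and the replicate block 34. Neither counted siIGF2BP3 RPF replicates 2 and 3 as 1 sample. In each condition the count called higher in RPF than Input was 51 with no filter, 3 at the 5 CPM minimum and 14 in the main test; filters change how many genes are tested. Leaving out 1 library gave 14 to 17, and with the 4 features, 3 of which were tested, it was 17. Per 1000000 protein-coding counts, the summed RPF level was 21949 in siControl and 22766 in siIGF2BP3 instead of 18898 and 19116 CPM.

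In RNA the 7 genes named kept their sign in 92 of 92 runs, while in RPF and translational efficiency some uncalled values changed sign. In RPF, H1-2 turned to 0.0039 and H2BC17 to 0.0056 at the 5 CPM minimum, H2BC17 to 6.77e-06 on protein-coding genes alone, and H2AC14 to -0.0067 with the length offset, -0.0084 with upper-quartile factors and -0.0030 with the replicate block. Leaving out 1 library gave ranges of -0.13 to 0.053 for H1-2, -0.14 to 0.093 for H2AC14, -0.13 to 0.058 for H2BC17, -0.091 to 0.17 for H3C10 and -0.077 to 0.23 for H4C12 in RPF, and in translational efficiency -0.35 to 0.056 for H1-4 and -0.31 to 0.032 for H4C11. With siIGF2BP3 RPF replicate 1 left out, H2AC14, H3C10 and H4C12 had -0.14, -0.089 and -0.073 with the sum and -0.14, -0.098 and -0.085 with the block. The cause was not tested. In all, 28 of 65 genes had 3 or fewer Input counts over siControl libraries.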

Other observations

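The files also list 13 histone pseudogenes of the same clusters, which the rule leaves out. Of these, 8 had at least 1 CPM in siControl RPF and 5 at least 10 CPM, with a median of 7.46 CPM and a highest level of 44.04 CPM. Their siControl RPF sum was 163 CPM and their Input sum 7.78 CPM.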
